A study of Xenopus tropicalis with 30 samples.

Results

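Runs of 5 or more neighbouring poly(A) sites, the places where messenger RNAs are cleaved and tailed, are described here in the frog Xenopus tropicalis. A run was a chain of sites on the same chromosome and strand with at most 2000 bases from the end of a site's cluster to the start of the next. Of 55062 such runs on the 10 chromosomes, 2791 (5.07%) held 5 or more sites. They contained 19250 of the 89501 chromosome sites (21.5%), and every other run held 1 site (40453 runs) or 2 to 4 sites (11818 runs). The groups compared were 6 adult males and 6 adult females, 1 library per animal, with no treatment, strain or age given in the labels. Whole bodies were taken, and 3' ends were counted by WTTS-seq, in which fragmented RNA is enriched for its poly(A) tails before sequencing. The animals are separate individuals per the labels. Start sites came from 15 libraries of 5' ends (WTSS-seq and CAGE), from the same individuals and from a pool of 3 females. The tables name no genes, so the labelled source could not be checked against marker genes, and the genome build is not given in the sources used here.

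Transcripts of most animal genes can be cleaved and polyadenylated at more than a single place, a process called alternative polyadenylation. Sites within the last exon give messages with the same coding sequence and a longer or shorter 3' untranslated region, which carries binding sites for microRNAs and RNA-binding proteins; sites further upstream can shorten the protein. In mouse and human, brain is known for the use of downstream sites and testis for the use of upstream ones.

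The 12 libraries held 2304469 to 6624765 counts. Runs of 5 or more sites took 16.8% to 20.6% of the counts of each male library, against 25% to 26.9% of each female library, so the sexes did not overlap. Of the 19250 sites, 25.1% to 36.4% had a count in each male library, against 49.7% to 59% in females 1 to 5 and 31.8% in female 6, although hers was the deepest library. Among 3804 of these sites whose counts averaged 20 or more per library, 15.0% to 31.4% were at 0 in males, highest in male 3, against 2.39% to 4.23% in females 1 to 5 and 14.6% in female 6. That average was taken over all 12 libraries, so a site counted mostly in females could pass on female counts alone. The difference in zeros between the sexes is therefore partly set by the filter. Female 6 stands apart from the other females, while male 3 has the lowest share of sites with counts among males, followed by male 6 at 27.2%. Results on site use are given with and without male 3 and female 6, a pair chosen after seeing the data. In whole bodies, fewer cells of a type and less RNA per cell cannot be told apart.

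Runs of 5 or more sites were mostly just over that size. There were 997 with 5 sites, 609 with 6, 439 with 7, 246 with 8, 164 with 9 and 336 with 10 or more, up to 25 sites. Their median length was 3081 bases (quartiles 2209 and 4279), with a range of 405 to 13813 bases. Neighbouring clusters lay a median of 231 bases apart (quartiles 74 and 629), and the nearest were 25 bases apart. Clusters of the most used site of a run were wider than the others, with a median of 132 bases against 68. On chromosome 10, 6.85% of runs held 5 or more sites, the highest share, and on chromosome 6 the lowest, 3.90%.

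Many of the sites were rarely used. With sites under a mean of 1 CPM (the count divided by a library total that TMM scaling corrected for composition) left out, 316 runs of 5 or more sites remained. No listed site had under 25 counts in the table's total column, and that column includes counts of material not used here: the 12 libraries account for 35.0% of it in runs of 5 or more sites and for 48.7% in runs of 2 to 4.

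Strand and start sites are given as a description, with no test. On the minus strand lay 60% of runs of 5 or more sites (1674 against 1117 on the plus strand), whereas 55.3% of runs of 1 site, 50.7% of runs of 2 to 4 sites, 55.3% of all chromosome sites and 48.0% of chromosome counts were on it. Clusters were also narrower on the minus strand, with a median over all chromosome sites of 26 bases against 123 on the plus strand, and the part of cluster width in the number of sites per run was not tested. At least 1 start site lay inside 1811 of the 2791 runs (64.9%) on their own strand, against 23.2% of runs of 2 to 4 sites, and 781 runs held 3 or more. Per 10 kb there were 5.32 start sites on the same strand and 0.466 on the opposite strand, against 3.36 and 0.506 in runs of 2 to 4 sites.

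Although a run of this kind listed at least 5 sites, its use was concentrated in a few. Site shares were computed per animal and averaged with equal weight over the 12 animals, in the 2087 runs with a mean of 50 or more counts. The dominant site, the one with the highest mean share, held a median of 69.0% of its run (quartiles 52.5% and 85.3%). It held 50% or more in 1633 runs (78.2%) and 90% or more in 359 (17.2%). The second site held a median of 16.2%, lay a median of 1247 bases from the first, and was upstream of it in 1225 runs (58.7%). A median of 3 sites was needed to reach 90% of the use, and 5 or more were needed in 216 runs (10.3%).

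Evenness was measured by the Gini-Simpson index, the chance that 2 counts drawn from a run come from different sites, which is 0 when only 1 site is used. Its median was 0.363 (quartiles 0.202 and 0.489), equal to 1.57 sites used evenly (the effective number of sites). Runs of 2 to 4 sites had a median dominant share of 93.3%, an index of 0.0918 and 1.10 effective sites. Just outside the limit, runs of 4 sites had a median dominant share of 83.8% and 1.25 effective sites, and just inside it runs of 5 had 79.6% and 1.35. In the longest class, runs of 15 or more sites, the dominant share was 45.9% with 2.34 effective sites. Across these classes use spread over more sites as the list grew, but far more slowly than the list itself, with a median of 0.235 effective sites per listed site. A site was listed only with 25 or more counts in the total column, so a longer list holds more used sites partly by construction. Longer lists also had more counts, with a median per library of 83.3 in runs of 5 and 241 in runs of 15 or more. The part of either in this trend was not tested.

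**Figure D1:**
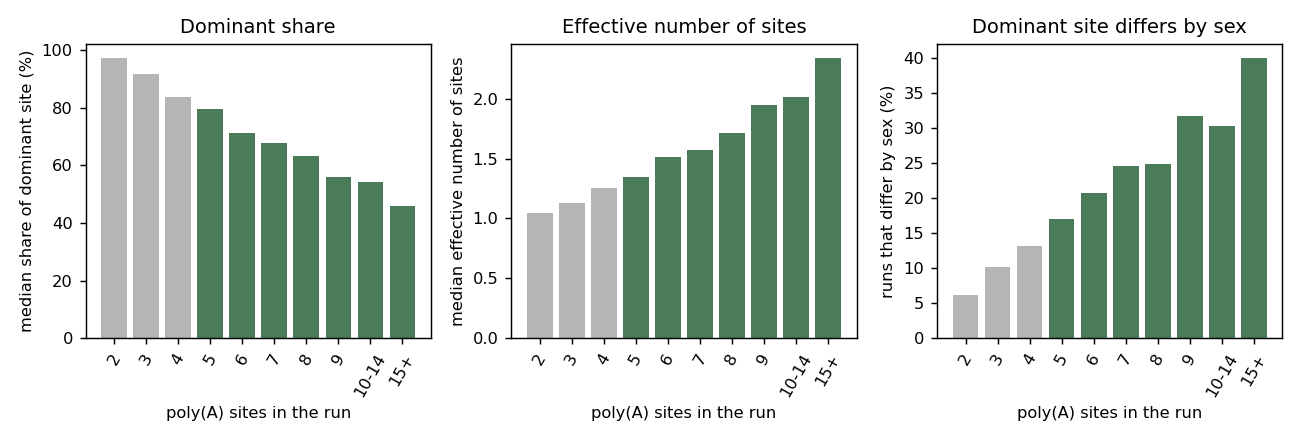
Median share of the dominant site (%), median effective number of sites, and share of runs whose dominant site differed between males and females (%), by the number of poly(A) sites in the run, for runs with a mean of 50 or more counts. Grey bars are runs of 2 to 4 sites and green bars runs of 5 or more; the dominant share falls to 45.9% in runs of 15 or more sites.

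The dominant site was most often neither end of the run. It was interior in 1217 runs (58.3%), the most downstream site in 671 (32.2%) and the most upstream in 199 (9.54%), and 325 of the interior ones were the site next to the last. In runs of 2 to 4 sites these shares were 21.0%, 53.6% and 25.4%, but such runs have fewer interior places. The dominant site was the most downstream in 39.2% of runs of 4 sites and in 38.2% of runs of 5. All 12 animals had the same dominant site in 619 runs (29.7%).

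The longest lists were found on chromosomes 9, 4 and 7. The run with 25 sites (chromosome 9, plus strand, 58884560 to 58898372) stood at 249 ± 92.0 CPM in males and 7.66 ± 5.79 CPM in females (mean ± SD, n = 6 each), and 24 start sites lay inside it on the same strand. In all 6 males its dominant site was the 19th from upstream, at 58892984, with a share of 35.5% to 61.9%. A run of 22 sites on chromosome 4 (plus strand, 38862877 to 38875737) had 8654 ± 5161 CPM in males and 374 ± 174 CPM in females, with 23 start sites inside. Its site at 38866641 held a lowest, median and highest share of 35.3%, 63.6% and 85.7% in males, against 10.1%, 19.4% and 87.1% in females. The last site, at 38875117, held 3.49%, 15.2% and 54.3% in males and 4.04%, 59.3% and 74.8% in females, so the sexes overlapped at both sites, and site use did not pass the test (edgeR adjusted p = 0.657). The second run of 22 sites (chromosome 7, minus strand, 15504878 to 15514499) ran the other way in level, with 11.5 ± 4.01 CPM in males and 188 ± 19.6 CPM in females. Its index was 0.578 ± 0.213 in males, on 11 to 47 counts per animal, and 0.814 ± 0.0194 in females (limma adjusted p = 0.118).

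The 4 runs of the highest level each rested on a single site, which was the same in all 12 animals. On chromosome 2 (minus strand, 134364964 to 134368240, 8 sites) the second site, at 134367210, held 99.97% ± 0.0256 of the run in males and 99.79% ± 0.143 in females. The run had 21864 ± 5026 CPM in males and 2815 ± 914 CPM in females (log2 difference 2.99, SE 0.28, edgeR adjusted p = 1.15e-06). On chromosome 8 (plus strand, 49711274 to 49714658, 6 sites) the site at 49713392 held 99.94% ± 0.0554 in males and 99.97% ± 0.0599 in females, at a run level of 15458 ± 7351 CPM in males and 585 ± 315 CPM in females. Runs on chromosomes 1 (minus, 168219421 to 168221974) and 10 (minus, 23817840 to 23821188) were alike, with 99.0% and 99.4% in the dominant site and 9040 ± 2494 and 8500 ± 2324 CPM in males, against 890 ± 204 and 1076 ± 288 CPM in females. The least even runs were the first 2 of these and a run on chromosome 2 (plus, 61128996 to 61132844), whose index was 0.000386 in males and 7.18e-05 in females.

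At the other end stood runs in which no site led clearly. A run of 15 sites on chromosome 4 (minus strand, 61179355 to 61182950) had an index of 0.822 ± 0.0241 in males and 0.813 ± 0.0594 in females, or 5.63 and 5.34 effective sites. The site at 61181883 held the most in 10 of 12 animals but only 29.8% on average. A run of 17 sites on chromosome 6 (minus, 23626789 to 23638049) had 4.85 effective sites in males and 6.08 in females, and a run of 16 on chromosome 2 (minus, 58973294 to 58979471) had 4.64 and 5.23. In the chromosome 6 and chromosome 2 runs only 2 animals each shared the overall dominant site, which held 18.1% and 21.9%. None of the 3 passed the test by sex in evenness (limma adjusted p = 0.882, 0.520 and 0.450) or in site use (edgeR adjusted p = 1.00, 0.821 and 0.880).

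The next question was how these runs differed between the sexes, first in level. Summed over their sites, 2578 runs of 5 or more sites could be tested, and edgeR's quasi-likelihood test called 431 male-higher and 976 female-higher (adjusted p under 0.05 over all runs). Of all 14085 runs tested, 29.3% were called male-higher and 26.4% female-higher, 55.7% in all. The median log2 difference of the runs of 5 or more sites was -0.84, and 842 of them lay above 0. Of their sites, 4174 of 19250 passed the filter on low counts, and 616 of these were called male-higher and 1234 female-higher, where 25.8% and 24.9% of all 16429 sites tested were, 50.8% together. Only 1224 runs kept 2 or more sites after that filter, 1088 kept 1 and 479 none. The balance depends on scaling, since the TMM factors were 0.559 to 0.771 in males and 1.38 to 1.72 in females. With library totals alone, which shifts all sites by a median of -1.23 on the log2 scale, 228 runs were called male-higher and 1679 female-higher, and of sites 354 and 2226.

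Males and females had different dominant sites in 479 of the 2087 runs (23.0%), against 9.18% of runs of 2 to 4 sites. By number of sites the share was 6.10% at 2, 13.2% at 4, 17.1% at 5 and 40% at 15 or more, so neighbouring classes differed less. The male site lay downstream of the female site in 338 of the 479 and upstream in 141, at a median distance of 1566 bases. In runs of 2 to 4 sites the directions were 171 and 169. Not all of these differences passed a test: 105 of the 479 were called for site use by the test below, 89 with the male site downstream and 16 upstream, while 116 could not be tested. In runs of 2 to 4 sites 43 of 340 were called, 30 with the male site downstream and 13 upstream, while 144 could not be tested. The share of runs with different dominant sites was 13.7% in those with a mean of 200 or more counts.

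In 11 of the 2087 runs (0.527%) the dominant site was one and the same in all 6 males and another in all 6 females, and the same count, 11 of 3705 (0.297%), was found in runs of 2 to 4 sites. All 11 runs of 5 or more sites were called for site use (edgeR, adjusted p 1.13e-08 to 0.00817), against 7 of the 10 that could be tested in runs of 2 to 4 sites. Single sites passed less often. Both dominant sites passed in the chromosome 4 run at 125134573 (edgeR, site use adjusted p = 0.0453 for the male site and 0.00225 for the female site). Neither passed in the chromosome 10 run at 27949576 (0.0594 and 0.224). In each of the others only the male or only the female site passed. The runs were picked by the same counts per site, so these calls are not independent of the choice. In 9 of the 11 runs of 5 or more sites the male site was the downstream one. On chromosome 7 (plus strand, 85380812 to 85384204, 9 sites) males used the last site at 85383813 for 93.3% ± 4.33 of the run and females for 30.7% ± 8.70, while the first site at 85380933 held 4.22% ± 4.88 in males and 46.3% ± 8.90 in females. The lowest male share of the last site was 87.4% and the highest female share 37.1%. As single sites, the first passed the test of site use and the last did not (edgeR adjusted p = 0.00282 and 0.115). On chromosome 1 (plus, 139242155 to 139245920, 7 sites) the last site held 79.6% ± 12.5 in males against 13.7% ± 6.60 in females, and the second site, 2952 bases upstream, 18.9% ± 13.7 against 79.6% ± 10.5. There the last site passed singly and the second did not (edgeR, site use adjusted p = 0.0270 and 0.0954). Levels of these 2 runs did not pass the test, with 95.9 ± 51.3 against 57.6 ± 10.6 CPM and 60.5 ± 27.2 against 38.7 ± 13.6 CPM (edgeR adjusted p = 0.0863 and 0.157). Inside each of these 2 runs lay 5 start sites on the same strand, and the 11 runs held from 0 to 6. Whether the sites of a run belong to the same gene was not tested.

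Further runs of the 11 lay on chromosomes 4, 2, 6, 10 and 5. A run of 15 sites on chromosome 4 (minus, 125134573 to 125142589) had its site at 125134738 at 87.7% ± 14.4 in males and 20.8% ± 5.34 in females, and the site 4271 bases upstream at 6.86% ± 4.03 and 51.6% ± 5.42. On chromosome 2 (plus, 87657666 to 87663262) the site at 87662479 held 60.1% ± 10.6 in males and 6.59% ± 6.71 in females, and the site 4432 bases upstream 21.4% ± 9.97 and 90.4% ± 6.23. Runs on chromosomes 6 (minus, 39154662 to 39158350) and 10 (plus, 27949576 to 27954245) were higher in males, at 158 ± 59.1 against 32.7 ± 8.09 CPM and 113 ± 57.3 against 30.1 ± 7.33 CPM (edgeR adjusted p = 5.32e-05 and 0.000699), and males used a site 3364 and 4191 bases downstream of the female one. On chromosome 5 (plus, 87315958 to 87319285) the last of 6 sites held 77.1% ± 11.1 in males and 7.37% ± 6.59 in females, the site before it 22.6% ± 11.6 and 91.6% ± 6.69.

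**Figure D2:**
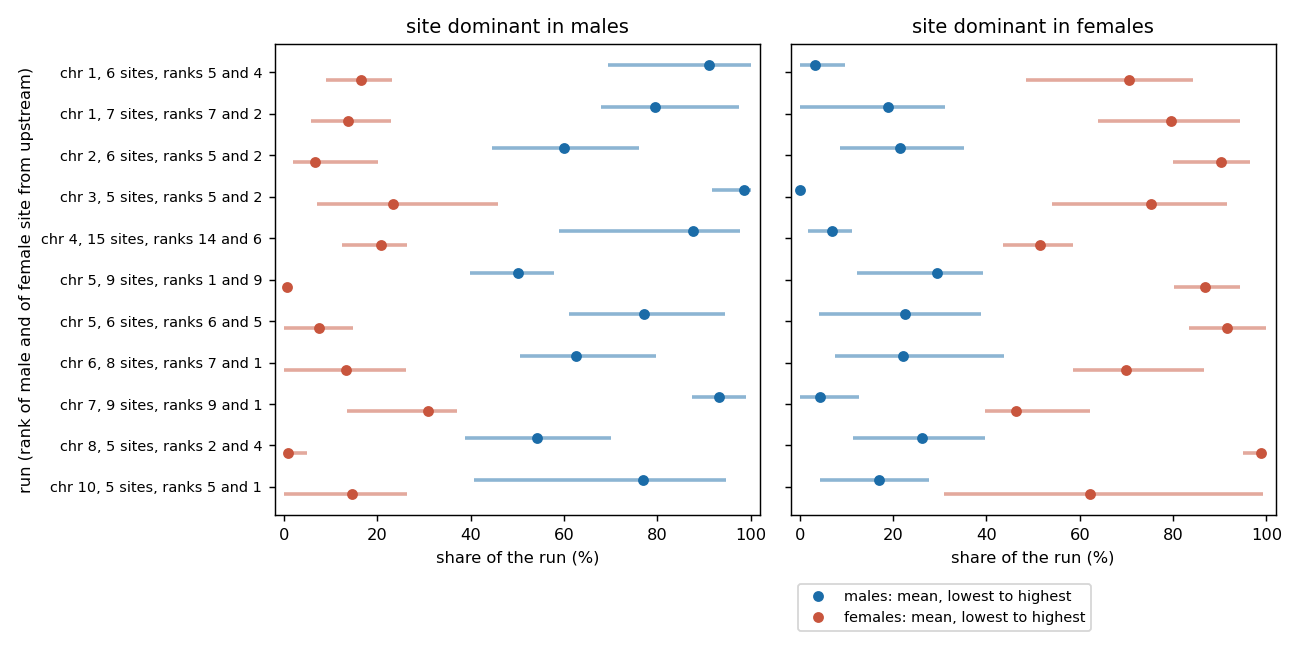
Share of the run (%) held by the site dominant in males (left) and by the site dominant in females (right) in the 11 runs where all 6 males shared a dominant site and all 6 females shared another; points are means, lines run from the lowest to the highest animal, males above females in each row. Male and female ranges do not overlap in any row of either panel, but the runs were picked by these same shares, so this is no separate support.

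Of the 2 runs that went the other way, that on chromosome 5 (plus strand, 58046253 to 58050121, 9 sites) had the smallest p of all runs of 5 or more sites (edgeR, site use adjusted p = 1.13e-08). Its first site, at 58046271, held a lowest, median and highest share of 39.9%, 51.2% and 57.8% in males, while in females it held 0.584% ± 0.573. Its last site, at 58049682, 3411 bases downstream, held 12.3%, 30.4% and 39.3% in males against 80.2%, 86.3% and 94.3% in females. In level the first site had 131 ± 35.7 CPM in males and 1.05 ± 1.01 CPM in females (log2 difference 6.97, edgeR adjusted p = 5.73e-06), and the last 80.9 ± 39.7 and 141 ± 39.1 CPM (log2 difference -0.80, edgeR adjusted p = 0.0952). In share the sexes overlapped at neither site, whereas in level they overlapped at the last. The run on chromosome 8 (plus, 5187738 to 5190818, 5 sites) was similar, with the second site at 54.2% ± 12.1 in males and 0.831% ± 2.00 in females, and the fourth at 26.1% ± 11.8 and 98.9% ± 2.00 (edgeR, site use adjusted p = 0.000491). The female level varied from 14.5 to 420 CPM, and was highest in female 4.

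Site use was tested within each run by diffSpliceDGE of edgeR, which asks whether sites change by unequal folds. It covered only sites left by the filter on low counts, and 40 runs kept 5 or more of them. Among the 1224 runs of 5 or more sites that could be tested, 216 (17.6%) were called, close to the 15.4% of all 2491 runs tested. Of single sites, 118 of 3086 were called (3.82%), against 3.56% of all sites. In 93 of the 216 runs the summed level did not pass the test by sex, in 48 it was higher in males and in 75 in females. In runs of 2 to 4 sites this split was 54, 40 and 39 of 133. Without male 3 and female 6 the count of called runs of 5 or more sites was 307, and with each library left out in turn it lay between 177 and 294. Both the count and the share called depended on the filter. They were far higher when more of the rarely used sites were kept, as given below with the processing.

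Besides the chromosome 5 run, the smallest p belonged to runs in which a site went scarce or unseen in males or in females. On chromosome 2 (minus strand, 101520842 to 101530741, 14 sites) the 13th site, at 101521434, held 19.4%, 35.8% and 51.9% as lowest, median and highest share in males and had no count in 6 females, whose 1361 counts in the run allow a share of up to 0.220% (3 counts; counting error only). The first site, at 101530736, held 1.08%, 4.27% and 11.2% in males against 13.5%, 37.8% and 53.4% in females (edgeR, site use adjusted p of the run 2.57e-07). The level of the whole run did not pass the test, at 49.3 ± 16.6 CPM in males and 32.2 ± 13.9 CPM in females (edgeR adjusted p = 0.161).

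In the other 4 runs chosen for their small p, upstream sites were scarce or unseen in males. On chromosome 9 (minus, 11056802 to 11058904, 5 sites) every one of the 222 male counts lay at the last site, at 11056824, while in females that site held 22.3%, 48.1% and 61.8% and the first and second sites 25.7% ± 10.8 and 17.8% ± 8.32 (edgeR, site use adjusted p = 1.98e-06). A male share of up to 1.35% at either of these would go unseen. On chromosome 2 (plus, 89656621 to 89665615, 7 sites) all 215 male counts were likewise at the last site, which held 37.9%, 45.8% and 65.5% in females. On chromosome 3 (minus, 112173104 to 112174543, 5 sites) the second site, at 112174262, had no count in males and held 54.1%, 77.1% and 91.7% of the run in females, with 90.5 ± 51.8 CPM. Males had only 83 counts in that run, from 2 to 41 per animal. On chromosome 1 (plus, 106858839 to 106863543, 6 sites) the fourth site held 3.27% ± 4.20 in males and 70.6% ± 13.8 in females, and the site 1488 bases downstream 91.1% ± 11.3 and 16.6% ± 5.51 (edgeR, site use adjusted p = 3.06e-06). All 4 runs were lower in males in level, with log2 differences of -1.72, -3.47, -4.23 and -2.91 in the order given (edgeR adjusted p = 0.00872, 0.000153, 3.92e-05 and 2.71e-05), so their male shares rest on few counts. In the chromosome 2 run 119 of the 215 male counts came from male 4 and 2 from male 3.

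Among called runs with different dominant sites, the widest differences in share came mostly from runs with few male counts. Runs on chromosome 8 (plus, 30140731 to 30142930) and chromosome 2 (minus, 102243015 to 102245421) had 71 and 59 male counts, all at the last site, against 861 and 611 female counts with 14.6% ± 11.7 and 28.9% ± 10.9 there; 1 male had no count in the first of these and 2 had none in the second. Another (chromosome 2, minus, 37050884 to 37053218) had 86 male counts, with 96.4% ± 8.81 at the last site against 24.5% ± 17.4 in females. A run on chromosome 2 (plus, 67046445 to 67052233, 9 sites) was higher in males, at 67.6 ± 31.7 against 23.1 ± 12.1 CPM (edgeR adjusted p = 0.00932). Its last site held 70.7%, 89.0% and 100% in males and at most 28.3% in females.

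**Figure D3:**
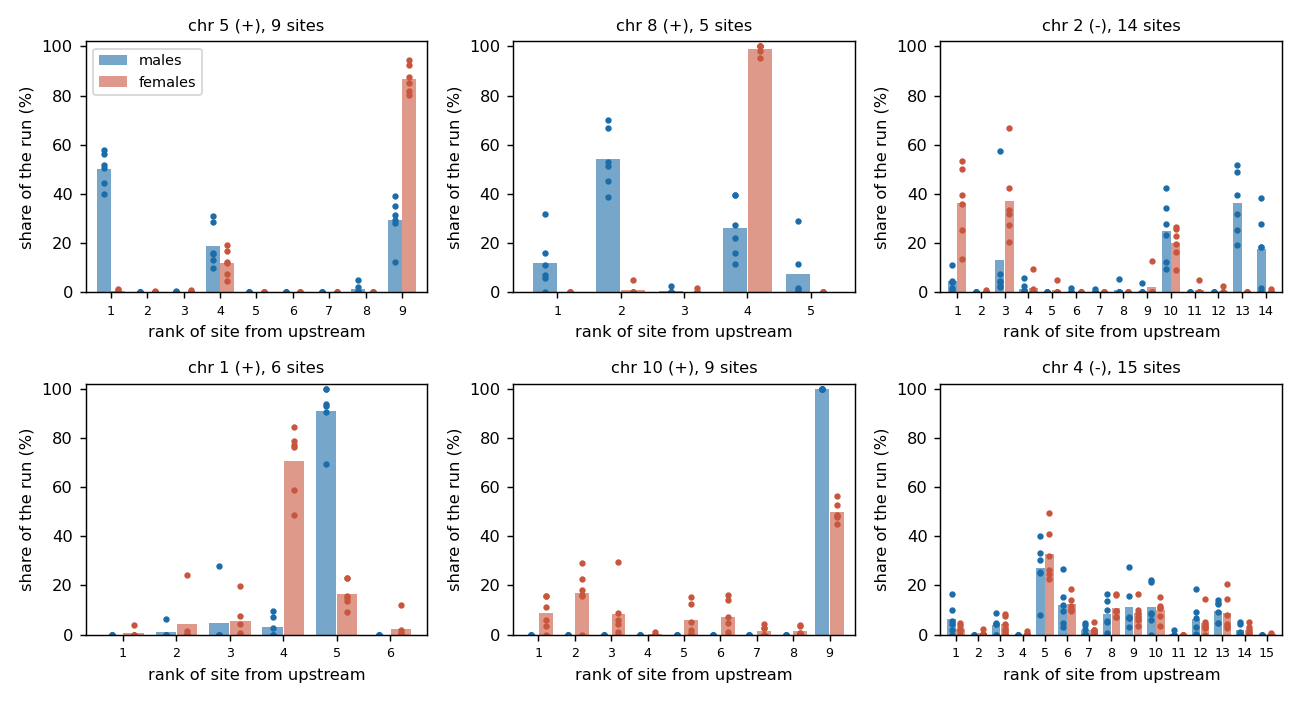
Share of the run (%) by rank of the site from upstream in 6 named runs; bars are means of 6 males (blue) and 6 females (red) and points are animals. In the chromosome 5 run male use lies at the first site, the fourth and the last while females hold 80.2% or more at the last; in the chromosome 10 run all male counts are at the last site; the chromosome 4 run is among the evenest, with overlapping sexes.

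Evenness differed between the sexes in the direction of fewer sites in males. Of 1690 runs of 5 or more sites with enough counts in both sexes, 171 were less even in males (10.1%) and 39 more even (2.31%) by limma, where 5.93% and 1.69% of all 4791 runs tested were, 7.62% together. The index was lower in males in 1151 of the 1690 and higher in 539, with a median difference of -0.0621. In 128 of the 210 called runs the sexes did not overlap, against 74 of the 122 called runs of 2 to 4 sites. The runs were called on the same values, so this lack of overlap is no separate support. Counts differed in depth, with a median male to female ratio of 0.263 in counts per library. Within the 197 runs whose sexes lay within 1.5 times of each other in depth, a limit chosen after seeing the data, 32 were less even in males (16.2%) and 6 more even (3.05%). Of 417 runs of 2 to 4 sites within that limit, 22 were less even in males (5.28%) and 7 more even (1.68%). The limit concerns mean counts per run only, and the part of depth was not tested, inside the limit or outside it.

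Taken per animal over the 1152 runs with a value in all 12, the median effective number of sites had a lowest, median and highest of 1.29, 1.45 and 1.59 in males and 1.40, 1.68 and 1.84 in females. The sexes overlapped: male 3 was the lowest of all at 1.29, and female 6, at 1.40, lay below males 1, 2 and 5 and beside males 4 and 6 at 1.39. Both libraries also had the most sites at 0 in their sex, and the part of that in their evenness was not tested. Without the pair, 175 runs were less even and 39 more even in males. A two-sided exact permutation test per run gave 0 calls after adjustment over 4791 runs, with a smallest adjusted p of 0.0521 and a smallest possible unadjusted p of 0.00216. At an unadjusted p under 0.05 that test had 419 runs less even and 93 more even in males.

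In the run with the largest loss of evenness in males, only 1 site had male counts. On chromosome 10 (plus strand, 2242830 to 2247703, 9 sites) all 722 male counts, 34 to 182 per animal, were at the last site, at 2247298. In females it held 44.9%, 48.4% and 56.4%, and the rest was spread over further sites upstream, so that the index was 0 in each male and 0.674 ± 0.0276 in females (limma adjusted p = 2.19e-10). The level of the run did not pass the test, at 48.4 ± 17.5 CPM in males and 35.3 ± 21.6 CPM in females (edgeR adjusted p = 0.348). Runs of 10 sites on chromosome 4 (minus, 113339018 to 113341786) and 8 sites on chromosome 3 (minus, 116455916 to 116459212) differed by -0.670 and -0.668 (limma adjusted p = 4.96e-07 and 1.86e-05), with 142 and 194 male counts in all. In each of them only 4 males had the 10 counts needed for a value.

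Males were the more even sex in the chromosome 8 run described above, with an index of 0.585 ± 0.109 in males and 0.0219 ± 0.0384 in females (limma adjusted p = 2.22e-05). On chromosome 2 (plus, 90846632 to 90852542, 6 sites) the index was 0.540 ± 0.143 in males and 0.0224 ± 0.0275 in females (limma adjusted p = 0.000266). There the site at 90850564 held 12.3%, 23.1% and 63.2% in males against 96.4%, 99.4% and 100% in females. Males also used the site at 90852473, the last, for 41.2% ± 25.2, against 0.137% ± 0.335 in females. On chromosome 5 (minus, 49014062 to 49015812, 5 sites) the third site held 56.4% ± 15.5 in males and 98.6% ± 3.19 in the 5 females with a count. The index was 0.577 ± 0.132 in males and 0.0357 ± 0.0714 in the 4 females with the 10 counts needed for a value (limma adjusted p = 0.00169).

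**Figure D4:**
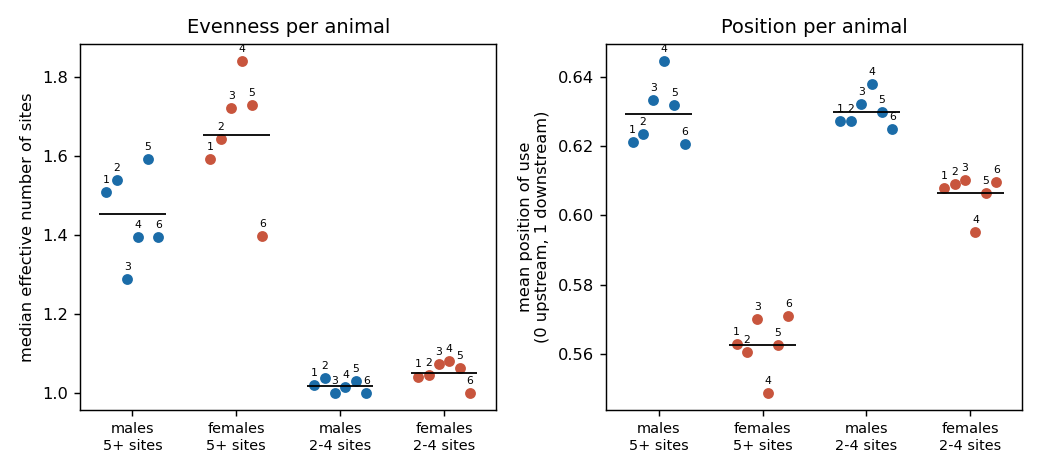
Median effective number of sites (left) and mean position of use (right; 0 at the most upstream and 1 at the most downstream site of a run) for each animal, over the 1152 runs of 5 or more sites and the 1741 runs of 2 to 4 sites with values in all 12 animals; numbers are replicate numbers and lines are means of 6. Male positions in runs of 5 or more sites lie at 0.621 to 0.645, above all females at 0.549 to 0.571. In runs of 2 to 4 sites all males also lie above all females.

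Where along the run use fell was summarised by its mean position, from 0 at the most upstream site to 1 at the most downstream. Males lay downstream in 232 of the 1690 runs tested (13.7%) and upstream in 29 (1.72%) by limma, where 7.81% and 1.34% of all 4791 runs tested did, 9.14% together. Over the 1690 runs, 1230 differences were downstream in males and 460 upstream, with a median of 0.0376. In 178 of the 261 called runs the sexes did not overlap, against 97 of the 138 called runs of 2 to 4 sites, again among runs called on the same values. Averaged per animal over the 1152 runs, males lay at 0.621 to 0.645 and females at 0.549 to 0.571, without overlap. The sexes did not overlap in runs of 2 to 4 sites either. The means there were closer, at 0.630 ± 0.00459 in males and 0.606 ± 0.00562 in females (SD, n = 6 each). Without male 3 and female 6 the counts were 226 and 21, and among the 197 runs of like depth 49 (24.9%) and 4 (2.03%). Among the 417 runs of 2 to 4 sites of like depth, 25 lay downstream (6.00%) and 7 upstream (1.68%). Without female 2 the upstream count was 19, and the exact permutation test per run called 147 downstream and 20 upstream.

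Downstream calls were found at every direction of level and on both strands. Of the 232, 124 did not pass the test of level by sex, 53 were called higher in males and 55 in females. The split was 63, 24 and 27 of 114 in runs of 2 to 4 sites. Of all 2578 runs of 5 or more sites tested for level, 16.7% were called higher in males and 37.9% in females. On the plus strand 105 were downstream and 16 upstream of 665 tested, and on the minus strand 127 and 13 of 1025. Evenness was also called in 119 of the 261, and in 87 of them males were both downstream and less even. In runs of 2 to 4 sites these counts were 85 and 52 of 138. Both measures are computed from the same counts per site, so their calls are not independent. Of the 197 called runs that could also be tested for site use, 118 were called by that test, against 87 of 115 in runs of 2 to 4 sites.

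In the largest downstream differences, female use lay near the upstream end. On chromosome 5 (plus strand, 45435082 to 45438795, 5 sites) the first site held 0%, 0% and 65.8% in males as lowest, median and highest, against 89.1%, 94.6% and 100% in females. In 5 of 6 males the mean position was 0.769 or more, and in the male with 65.8% it was 0.333. The mean positions were 0.747 ± 0.215 in males, on 10 to 59 counts per animal, and 0.0336 ± 0.0379 in females (limma adjusted p = 0.000389). On chromosome 3 (minus, 33936394 to 33939213, 5 sites) the last site held 31.2%, 66.1% and 82.9% in males and had no count in females, whose 101 counts allow a share of up to 2.97% (limma adjusted p = 7.12e-05 for position). That run was higher in males, at 43.4 ± 41.9 CPM against 3.00 ± 1.92 CPM in females (edgeR adjusted p = 0.000195). On chromosome 2 (minus, 67691832 to 67698781, 13 sites) positions were 0.912 ± 0.0698 in 5 males and 0.257 ± 0.0839 in 6 females (limma adjusted p = 1.96e-05), with the first site at most at 19.2% in males and at 50.4% to 81.8% in females. Male 3 had 3 counts in that run and no value.

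The largest upstream differences were those of the chromosome 5 and chromosome 8 runs with the reversed switch, at -0.530 and -0.497 (limma adjusted p = 9.79e-07 and 1.43e-05). The next, on chromosome 6 (plus, 92982404 to 92986007, 6 sites), was -0.461 with males at 0.525 ± 0.309 and females at 0.987 ± 0.0141 (limma adjusted p = 0.0372). Males there ranged from 0.0769 to 0.982, and the call was lost with 10 of the 12 libraries left out singly.

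**Figure D5:**
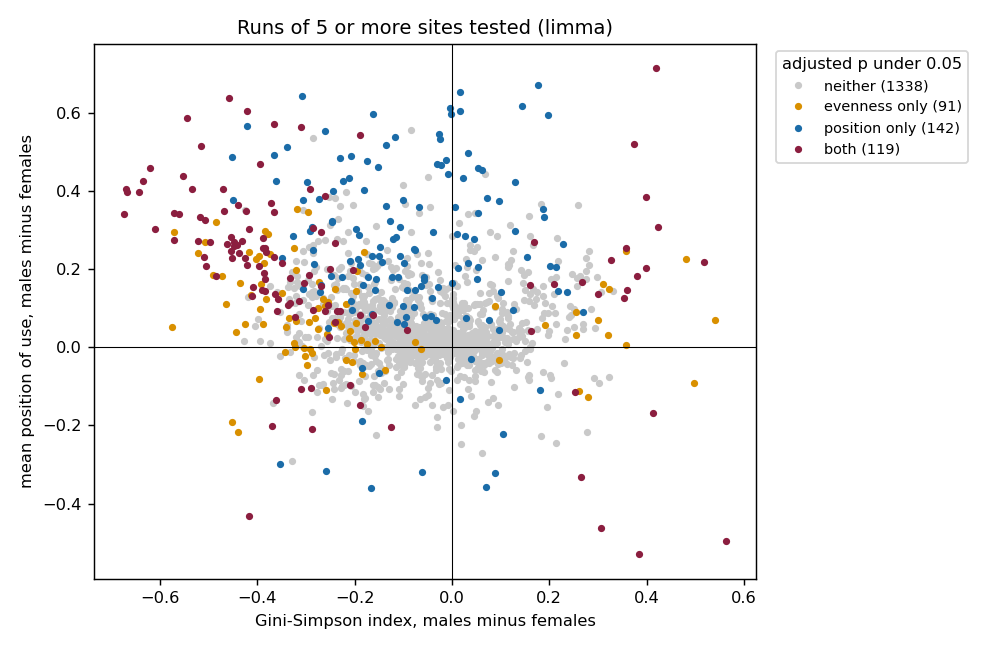
Difference between males and females (males minus females) in the Gini-Simpson index (horizontal) and in the mean position of use (vertical) for the 1690 runs of 5 or more sites tested, coloured by which of the limma tests called the run. Called runs crowd in the upper left, where males are less even and downstream, as in 87 runs called for both.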

How the data were processed

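The authors deposited raw counts per poly(A) site cluster for 12 WTTS-seq libraries and per start site cluster for 15 libraries, with whole numbers per the file headers; no aligner, clustering step or build is given in the sources used here. The poly(A) table also has a total column, and the smallest total of a site is 25. In the start table the header Male4 stands over 2 columns, so only its total over 15 libraries was used. Genes are not named in the tables. Library totals were 2304469 to 6624765, and limits for a count of 0 (3 counts) cover counting error only, since PCR reads without molecular identifiers are not independent molecules.

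Runs were built on each chromosome and strand. Sites and summed runs were tested with edgeR 4.0.16 (R 4.3.3; filterByExpr, TMM, glmQLFTest) and site use within runs with diffSpliceDGE on the same fit. The Gini-Simpson index and mean position were tested with limma 3.58.1 in runs with a mean of 50 or more counts, where an animal needed 10 counts and each sex 4 animals. All tests ran on every run or site of the table, with Benjamini-Hochberg adjustment and a threshold of 0.05, without a replicate block. DESeq2 1.42.0 was an alternative. Python 3.11.15 with numpy 2.4.6, pandas 2.3.3, scipy 1.17.1 and matplotlib 3.10.9 did the rest. The fits were tested on simulated counts with 200 changed sites. No 2 libraries were identical.

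Named runs were the 3 with the most sites, the 4 of the highest level, the 3 most and 3 least even, the 6 of smallest adjusted p for site use, the 6 of largest share difference among called runs whose dominant site differed by sex, and the 3 largest called changes in each direction of evenness and of position; the 11 complete switches were added as a full account of a count. The runs, the rule and the tests were chosen with earlier results of these data known.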

Additional observations from a re-analysis of the deposited data

Results flagged for a closer look

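In groups of 4 to 6 animals, the animal at either end of the range was compared with its nearest neighbour. In 17 of 108 groups an animal lay far from the others. Chance alone does this in about 1 in 20 groups of normally distributed values, which these values need not be. Some flagged groups had an index of 0 in every animal but 1, where any other value is flagged. The count of 17 is therefore not read against that rate. These groups share animals and runs.

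Among females, the library of female 6 had counts at 31.8% of the sites of these runs, the lowest share, and 14.6% of the well-covered sites were at 0 in it, the highest share.

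In level, 1 male stood at 19.2 CPM in the chromosome 2 run starting at 37050884, and 1 male at 126 CPM in the chromosome 3 run starting at 33936394. Single females stood at 58.9 CPM in the chromosome 2 run starting at 101520842, 86.4 CPM in the chromosome 9 run starting at 11056802, 420 CPM in the chromosome 8 run starting at 5187738, 10.9 CPM in the chromosome 5 run starting at 49014062 and 41.4 CPM in the chromosome 2 run starting at 67691832.

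In the Gini-Simpson index, 1 male stood at 0.0952 in the chromosome 3 run starting at 116455916. Single females stood at 0.143 in the chromosome 5 run starting at 49014062, 0.00298 in the chromosome 8 run starting at 49711274 and 0.000431 in the chromosome 2 run starting at 61128996.

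In mean position, single males lay lowest at 0.333 in the chromosome 5 run starting at 45435082 and at 0.791 in the chromosome 2 run starting at 67691832. Single females lay lowest at 0.785 in the chromosome 8 run starting at 5187738 and at 0.960 in the chromosome 6 run starting at 92982404.

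The total column of the poly(A) table held 19006045 counts at the sites of these runs that are not in the 12 libraries; what material they come from is not given in the sources used here.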

How the results depend on the processing

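No evenness or position difference of a named run changed direction under any alternative, and other values were not scored for direction. A count within a set fold of its main value was scored as not moved, for example 177 to 294 runs called for site use against 216. Of the values that answer a comparison 46 moved and 170 did not, and of those of named runs 20 lost their call and 348 did not. With library totals alone, sites higher in males and in females numbered 354 and 2226, and runs 228 and 1679. With no filter on low counts the sites were 1366 and 4874. With sites of 10 or more counts in all, 884 of 2775 runs were called for site use. With runs of a mean of 20 or more counts, 27.4% had dominant sites that differed by sex, and with 200 or more 13.7%, where 24 runs were more even and 77 less even in males, 89 downstream and 16 upstream. With a gap of 500 bases, sites were 162 and 538, runs 118 and 461, site use 37, evenness 2 and 62, and position 50 and 8; the dominant site was the most downstream in 28.2% and differed by sex in 19.5%. With a gap of 5000 bases, 983 sites and 705 runs were higher in males, 386 were called for site use, 64 were more even in males, 364 lay downstream and 54 upstream, and 25.4% differed in dominant site. The exact permutation test per run had 0 more even and 0 less even, with 147 downstream; all 6 runs named for evenness lost their call there (adjusted p 0.0521 to 0.0750). With summed counts the dominant site was the most downstream in 30.1%. With sites of 1 CPM or more, 316 runs remained with a median dominant share of 54.1%. Among the runs of like depth, chosen after seeing the data as was leaving out male 3 with female 6, 6 were more even, 32 less even, 49 downstream and 4 upstream.

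With each library left out in turn, runs called for site use were 177 to 294, more even 26 to 41, less even 126 to 216, downstream 174 to 253, upstream 19 (without female 2) to 25, sites higher in males 562 to 675 and in females 1195 to 1560, runs 392 to 427 and 945 to 1047. Dominant sites differed in 22.4% to 24.6% and were the most downstream in 31.5% to 32.8%. The chromosome 6 run at 92982404 lost its position call without male 1, 2, 3 or 4 or any female (adjusted p 0.0554 to 0.0728), without male 3 and female 6 (0.101) and by the exact permutation test (0.0547).

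Replicate numbers are shared by males and females, but same-numbered animals did not deviate together (r of -0.0615 to 0.0998 over 6 pairs, with 0 of 6 males closest to their own number). No pairing by number was therefore seen in the counts. Whether same-numbered animals share anything else was not tested. With the replicate block, 17 runs were more even and 78 less even in males, 148 lay downstream and 14 upstream, and the evenness call of the chromosome 5 run at 49014062 (adjusted p = 0.0742) and the position call of the chromosome 6 run (0.0968) were lost. The cause of each change was not tested.

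Low male counts limit the shares of single runs: with a median of 61 to 180.5 counts per run and male, against 185.5 to 531.5 per female, sites of low use were not detectable in single males.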

Other observations

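The highest point of a cluster lay at a median of 0.221 of its width from the upstream end on the plus strand and 0.429 on the minus strand, over all chromosome sites. In runs of 5 or more sites the median dominant share was 74.5% on the plus strand and 65.5% on the minus strand, and the dominant site was the most downstream in 37.1% and 29.0%. No test was run on these values.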
